A study of Homo sapiens with 8 samples.

Results

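Protocadherins are cell surface adhesion proteins of the cadherin superfamily. The members examined here were all rows of the deposited expression table whose gene symbol starts with PCDH, which gave 37 of 13307 genes. They were measured by mRNA-seq in Panc-1, an established line from a human pancreatic duct carcinoma. Panc-1 cells were transfected with a control siRNA (labelled siControl, here siNC) or with siRNA against *PHF13* (siPHF13), the gene of a PHD finger protein that binds H3K4me2 and H3K4me3, and each was sequenced either untreated or after TGFβ at 10 ng/ml for 48 h. TGFβ is a cytokine that induces epithelial-mesenchymal transition (EMT). This gives 4 conditions with 2 libraries each, all of a single cell line, and the depletion was partial. Untreated siNC libraries had 1804 and 1662 normalized counts of *PHF13* and siPHF13 libraries 524 and 558, or 31.3% of the control level. With TGFβ it was 1586 and 1709 against 513 and 529, or 31.7%. Nothing in the labels says that the 2 libraries of a condition came from separate cultures, so the p-values measure the spread between these libraries, which may be technical.

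Most human protocadherins lie in 3 neighbouring clusters on chromosome 5, named alpha, beta and gamma. In the alpha and gamma clusters each gene has its own variable exon, which codes for the extracellular part, the membrane segment and a short stretch of the cytoplasmic part, and this exon is spliced to constant exons that all genes of the cluster share. The beta genes have a variable exon only. In neurons each cell uses a different small choice of these promoters, which gives it a surface identity used for self-recognition, and the choice depends on DNA methylation and on loops held by CTCF and cohesin between promoters and distal enhancers. The C-type genes (PCDHAC and PCDHGC) at the downstream ends of the alpha and gamma clusters are used more evenly. The non-clustered protocadherins are separate genes with roles in adhesion and signalling. The study uses *PCDHB8* as an example of a poised gene, that is a gene whose promoter carries both an activating and a repressing histone mark. It calls *PCDHB8* dependent on PHF13 and stimulated by TGFβ. For this it shows the repressing mark H3K27me3 by ChIP-qPCR. It also shows browser tracks of open chromatin, PHF13, the Polycomb subunit EZH2, histone marks and mRNA at this gene. Beyond this gene it shows an mRNA heatmap of poised genes activated by TGFβ, and co-immunoprecipitation of PHF13 with EZH2. The values below are mRNA only.

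The table held 6 alpha genes (of 15 annotated as protein-coding in GENCODE release 44), 10 protein-coding beta genes (of 16) with the pseudogene *PCDHB17* as the eleventh beta row, 14 gamma genes (of 22) and 6 non-clustered genes (of 13). In GRCh37 coordinates the alpha members span 140186622 to 140391932, the beta members 140474191 to 140607331 and the gamma members 140710081 to 140892544 on the plus strand of chromosome 5. The table has no gene with a mean under 9.82 normalized counts, so a gene missing from it may have been filtered out. All 37 members passed the minimum used here, 10 normalized counts in 2 libraries. Most were low: 22 of the 37 had a mean under 50 normalized counts over the 8 libraries and 11 had a mean of at least 100. The 2 libraries of a condition differed by a median of 0.20 on the log2 scale for members with a mean of at least 100 and by 0.60 for those with a mean under 50.

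Promoter sequences are shown for the beta genes because the cluster shares a short element there, which was found by looking at the *PCDHB8* promoter, so its choice followed the sequence. RefSeq (GRCh38.p14) gave the 250 bases before and 50 bases after a start site for 30 of the 37 members. All 8 beta members with an entry held the letters GGCGCT, searched on both strands, on the strand of the gene. The stretches below lie on the plus strand, with these 6 letters in capitals.

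PCDHB2, chr5:141094546-141094575: gagacgcggggtGGCGCTgcagccttagaa
PCDHB3, chr5:141100395-141100424: cgaacgcatggtGGCGCTgttgactaagaa
PCDHB7, chr5:141172568-141172597: aaaacgcaaggtGGCGCTgctggctaaaaa
PCDHB8, chr5:141177779-141177808: aggacccgtggtGGCGCTgcaggataagaa
PCDHB16, chr5:141182312-141182341: agaacgcgtggtGGCGCTgcaggttaagat
PCDHB10, chr5:141192301-141192330: aggccacacggtGGCGCTgcaggctaaaga
PCDHB13, chr5:141213867-141213896: aggacgcgtggtGGCGCTgcaggataagaa
PCDHB14, chr5:141223265-141223294: gagacacatggtGGCGCTacaggataagac

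Of the 30 positions, 14 were alike in all 8 stretches, 8 of them outside the capitals. In 7 of the 8 genes the first capital lay 40 to 66 bases before the annotated start, and in *PCDHB8* it lay at base 2 of the annotated transcript. Over all beta promoters in the table, 13 of 14 (92.9%) held the letters, against 1 of 13 alpha promoters (7.69%), 11 of 25 gamma promoters (44%) and 21.7% of all 35116 promoters of the same length. The shorter CGCT, the core of the element known from clustered protocadherin promoters and contained in GGCGCT, was in 51 of 52 clustered promoters and in 70% of all. The AP1 site TGANTCA was in 1 of 52 clustered promoters and in 7.71% of all, and the SMAD palindrome GTCTAGAC was in 0 of 52 and in 0.202% of all. These are matches of letters and not measured binding sites.

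The promoters of *PCDHB8* and *PCDHB13* are shown to the same end point because these genes resemble each other most among the 8 and did not have the same values below.

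PCDHB8, chr5:141177540-141177802: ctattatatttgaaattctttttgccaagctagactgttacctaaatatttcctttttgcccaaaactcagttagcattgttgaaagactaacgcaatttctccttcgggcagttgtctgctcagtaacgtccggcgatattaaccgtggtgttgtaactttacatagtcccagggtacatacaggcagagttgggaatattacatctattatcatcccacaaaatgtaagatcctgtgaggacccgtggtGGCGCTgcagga
PCDHB13, chr5:141213669-141213890: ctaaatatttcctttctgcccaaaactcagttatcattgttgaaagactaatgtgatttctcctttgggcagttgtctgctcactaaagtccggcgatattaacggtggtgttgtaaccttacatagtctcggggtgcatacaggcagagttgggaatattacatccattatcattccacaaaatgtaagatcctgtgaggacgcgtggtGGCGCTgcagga

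The promoters were set end to end at the capitals without gaps, so an insertion or deletion in a pair lowers its share of identical bases. For *PCDHB8* and *PCDHB13* 200 of 216 bases (92.6%) were identical, against at most 37.9% in any other pair of the 8. The transcripts are alike as well. Of the 150-base windows in the exons that *PCDHB8* shares with no other annotated gene, 16.2% also occur elsewhere in the region, most of them in *PCDHB13*, for which the share was 10.5%. It was 12.2% in *PCDHB10*, 12.1% in *PCDHB2* and 0% in every alpha member. Among gamma genes it was 8.8% in *PCDHGB1* and 6.6% in *PCDHGB2*, which share such windows with each other. Reads from such windows can be assigned to the wrong gene or dropped, so the levels of these beta and gamma genes are uncertain to that extent. The alpha and gamma genes share their constant exons, so a count per gene as deposited would rest mainly on exon of its own. This includes the variable exon and any other exon that the authors' annotation gave the gene. The strand setting of the counting is not given in the sources used here. *PCDHA12*, *PCDHA13*, *PCDHAC2*, *PCDHB2*, *PCDHB3*, *PCDHB6*, *PCDHB7*, *PCDHB10*, *PCDHB11*, *PCDHB16*, *PCDHGB1*, *PCDH7*, *PCDH9* and *PCDH12* overlap annotated antisense genes. Without the strand, reads of those antisense genes cannot be told apart from theirs.

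The C-type promoters differ in base composition. The 5 C-type entries had 59% to 66% G and C, the 22 entries of the other clustered members 32.3% to 51.7%, and the 5 of non-clustered genes 56% to 65.7%. The 250 bases before the start of *PCDHAC2*, the alpha C-type gene that fell after depletion (below), are an example and hold no GGCGCT.

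PCDHAC2, chr5:140966226-140966475: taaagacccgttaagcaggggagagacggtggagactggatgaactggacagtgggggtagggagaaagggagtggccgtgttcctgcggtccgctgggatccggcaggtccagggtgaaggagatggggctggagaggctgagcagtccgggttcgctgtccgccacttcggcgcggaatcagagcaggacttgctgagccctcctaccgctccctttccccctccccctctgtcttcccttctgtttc

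A few genes supplied most protocadherin counts. Per kilobase of exon that no other annotated gene overlaps, the level averaged over the 8 libraries was 895 normalized counts for *PCDHGC3*, 186 for *PCDHGB7*, 128 for *PCDH7*, 102 for *PCDHB2* and 95.3 for *PCDHA12*. *PCDHB8* had 32.8 per kilobase and *PCDHB13* 4.58. *PCDHB17* and *PCDH20* have too little exon of their own for such a value. Exon under antisense genes was left out too, which left 2301 of 4097 bases for *PCDHB2*. If reads from left-out bases were counted, such a level is too high, so the order of these genes is uncertain. *PCDHGC3* alone held 31.4% and 33% of all protocadherin counts in the siNC libraries and between 38.8% and 49.1% in the other 6. Summed over the cluster, gamma genes had 71.5% ± 0.06 (SD, n = 2 here and in the next 2 sentences) of the clustered counts in siNC and 80.6% ± 0.19 after depletion. With TGFβ it was 73.9% ± 0.84 in siNC cells and 81.9% ± 2.83 after depletion. Alpha genes had 15.2% ± 1.1 in siNC and 9.3% ± 0.22 after depletion, and with TGFβ 11.8% ± 1.83 and 7.8% ± 1.24. In both depleted conditions both libraries therefore had a higher gamma share and a lower alpha share than both siNC libraries of the same treatment. A share can rise because other genes fell, so the sums themselves are given next.

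Alpha counts summed to 682 and 598 in siNC against 464 and 489 after depletion, and with TGFβ to 555 and 697 against 387 and 417. The 4 depleted libraries were all below the 4 siNC libraries. This fall came mainly from *PCDHA12* and *PCDHAC2*, the highest alpha genes. In each depletion comparison 3 of the 6 alpha genes rose and 3 fell, so it was not a fall of the whole cluster. Beta counts summed to 535 and 588 in siNC against 475 and 550 after depletion, and with TGFβ to 798 and 728 against 516 and 553. Here the 2 siNC + TGFβ libraries stood above the other 6. Gamma counts summed to 3065 and 2975 in siNC and between 3857 and 4709 in the other 6 libraries. Without *PCDHGC3*, which held most of them, the gamma sums were 700 and 716 in siNC and between 840.5 and 1215.6 in the other 6. Non-clustered counts summed to 2880 and 3042 in siNC against 1608 and 2034 after depletion, and with TGFβ to 2115 and 2122 against 1502 and 1369. These sums are descriptions and were not tested. In bulk RNA, fewer cells that use a gene and less RNA per cell cannot be told apart.

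**Figure D1:**
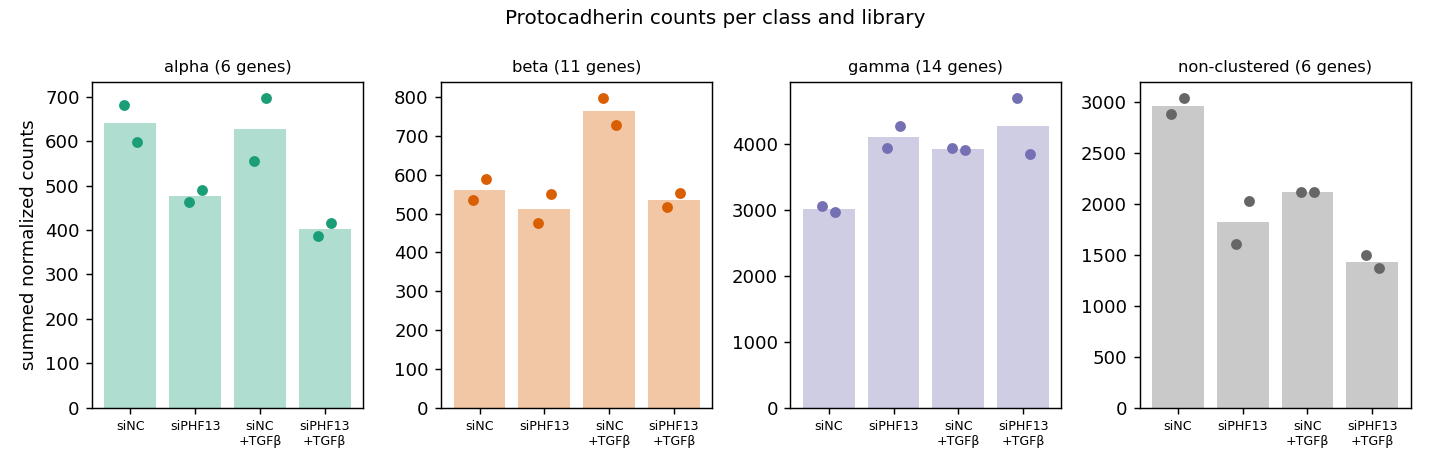
Summed normalized counts (y axis, from 0) of the 6 alpha, 11 beta, 14 gamma and 6 non-clustered protocadherin genes in the 4 conditions (x axis), with a point per library and a bar at the mean of 2. Alpha sums were at most 489 in the depleted libraries and at least 555 in the siNC libraries, beta sums were highest in siNC + TGFβ (728 and 798), and gamma sums were lowest in siNC (2975 and 3065). The highest genes weigh most in a sum, and 3 of the 6 alpha genes rose in each depletion comparison.

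The first comparison was depletion without TGFβ, siPHF13 against siNC. Genes were called changed at a limma adjusted p under 0.05 over all 13307 genes and an absolute log2 fold change over 0.58. Of the 37 members 10 were called (27%), against 18.4% of all genes. Of these, 4 were higher (7.95% of all genes were) and 6 lower (10.4%). By class, 3 of 6 alpha, 1 of 11 beta, 3 of 14 gamma and 3 of 6 non-clustered genes were called. The median log2 fold change was 0.16 for alpha, -0.19 for beta, 0.09 for gamma and -0.76 for non-clustered members, and 0.00 (-0.001) over all genes.

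In the alpha cluster, *PCDHAC2*, a C-type gene (chr5:140346055-140391932, GRCh37, plus strand), had 260 and 231 normalized counts in siNC and 73.6 and 112 in siPHF13. It fell by 1.42 on the log2 scale (standard error 0.24, limma adjusted p = 0.00031). *PCDHA12*, an alternately used alpha gene and the highest of the cluster by mean count, had 260 and 222 in siNC and 168 and 129 in siPHF13, with a log2 fold change of -0.70 (standard error 0.23, limma adjusted p = 0.0223). *PCDHA4*, the most upstream alpha gene listed, went the other way, with 41.7 and 46 in siNC and 71.6 and 96.7 in siPHF13 and a log2 fold change of 0.91 (standard error 0.28, limma adjusted p = 0.0174). The libraries of the 2 conditions did not overlap for any of these 3 genes. This was common, since of all 13307 genes 5121 had both siPHF13 libraries above both siNC libraries and 5166 had both below. The alpha genes thus did not move as a unit, although they share the constant exons. The call of *PCDHAC2* held without any single library, whereas that of *PCDHA12* was lost without siNC replicate 1 (-0.58) or siPHF13 replicate 2 (-0.51) and that of *PCDHA4* without siNC replicate 1 (0.84), siNC replicate 2 (0.98) or siPHF13 replicate 2 (0.70).

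In the gamma cluster, *PCDHGB7* had 335 and 360 normalized counts in siNC and 520 and 644 in siPHF13, a rise of 0.74 on the log2 scale (standard error 0.15, limma adjusted p = 0.0012). *PCDHGC3*, the C-type gene with the highest level of the family, had 2365 and 2259 in siNC and 3102 and 3285 in siPHF13. Its log2 fold change of 0.47 (standard error 0.08, limma adjusted p = 0.000276) passed the adjusted p but not the threshold on size. *PCDHGC5*, the last gene of the cluster, had 7.59 and 9.91 in siNC and 15.9 and 32.6 in siPHF13, a log2 fold change of 1.30 (standard error 0.47, limma adjusted p = 0.0336). *PCDHGA6* fell from 25.6 and 38.7 to 15.9 and 4.93, a log2 fold change of -1.70 (standard error 0.56, limma adjusted p = 0.0216). Both of these genes rest on few reads. The *PCDHGC5* call was lost without siNC replicate 1 (1.13), siNC replicate 2 (1.47) or siPHF13 replicate 2 (0.81), and the *PCDHGA6* call without siNC replicate 2 (-1.41) or siPHF13 replicate 2 (-0.94). All 3 PCDHGC genes had both siPHF13 libraries above both siNC libraries, as 38.5% of all genes did.

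In the beta cluster *PCDHB13* was the called gene. It had 7.59 and 12.6 normalized counts in siNC and 28.8 and 41.4 in siPHF13, a log2 fold change of 1.72 (standard error 0.60, limma adjusted p = 0.0301). Its near copy *PCDHB8* (chr5:140557371-140560120, GRCh37, plus strand) had 72.1 and 64.9 in siNC and 64.7 and 91.7 in siPHF13, so that the conditions overlapped (log2 fold change 0.17, 95% interval -0.37 to 0.71, limma adjusted p = 0.61). All *PCDHB8* values given here are those of the deposited table of single libraries. *PCDHB2*, the highest beta gene, had 225 and 228 in siNC and 220 and 180 in siPHF13 (log2 fold change -0.19, limma adjusted p = 0.363). The *PCDHB13* call was lost without siNC replicate 1 (1.39), siPHF13 replicate 1 (1.97) or siPHF13 replicate 2 (1.47), and without siPHF13 replicate 2 the *PCDHB8* value was -0.08.

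The 6 non-clustered members all had negative values. *PCDH7* (chromosome 4), which codes for an integral membrane adhesion protein, had 2086 and 2186 normalized counts in siNC and 1130 and 1372 in siPHF13. It fell by 0.78 on the log2 scale (standard error 0.10, limma adjusted p = 2.25e-05). *PCDH1*, an adhesion protein of airway epithelium, lies downstream of the gamma cluster on the minus strand of chromosome 5 (141232655 to 141258811) and had 241 and 295 in siNC and 118 and 132 in siPHF13, a log2 fold change of -1.08 (standard error 0.17, limma adjusted p = 0.000183). *PCDH9* (chromosome 13) had 170 and 168 in siNC and 120 and 106 in siPHF13, with a log2 fold change of -0.58 (standard error 0.21, limma adjusted p = 0.0389) that lies at the threshold on size. The calls of *PCDH7* and *PCDH1* held under every alternative run. That of *PCDH9* was lost without siNC replicate 1 (-0.58), siNC replicate 2 (-0.59), siPHF13 replicate 1 (-0.68, limma adjusted p = 0.0647) or siPHF13 replicate 2 (-0.49). The other 3 non-clustered genes had log2 fold changes of -0.23 (*PCDH18*), -0.73 (*PCDH12*) and -0.84 (*PCDH20*) and were not called. Without siPHF13 replicate 2 limma called *PCDH18* (-0.63) and the beta gene *PCDHB6* (-1.13) lower. Over all 37 members, fewer were called without siNC replicate 1, siNC replicate 2 or siPHF13 replicate 2. The share of all genes called in these fits is not given here, so the drop cannot be read as particular to the members.

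**Figure D2:**
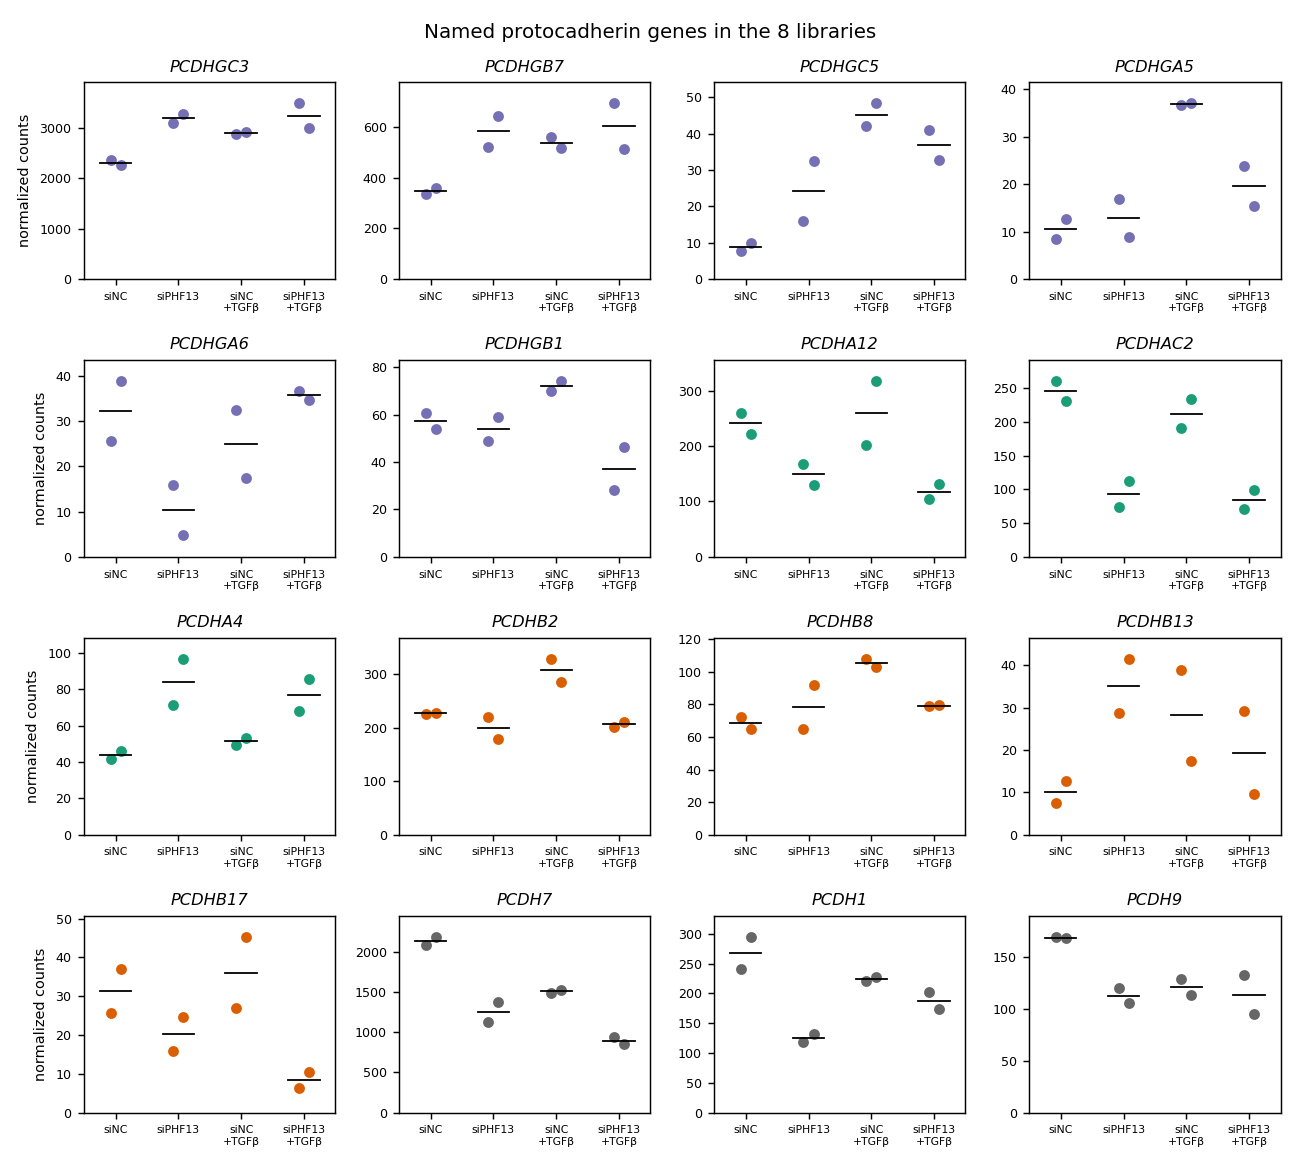
Normalized counts (y axes, from 0, a different scale in each panel) of 16 named protocadherin genes in the 4 conditions (x axes), with a point per library and a line at the mean of 2. *PCDH7*, *PCDHAC2* and *PCDHA12* were lower in both depleted conditions, and *PCDHGC5* had at most 9.91 counts in siNC and at least 15.9 in the other 6 libraries.

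The second comparison was the TGFβ response of control cells, siNC + TGFβ against siNC. Of the 37 members 3 were called (8.11%), against 4.79% of all genes, and all 3 were higher gamma genes (3.27% of all genes were called higher). *PCDHGC5* had 7.59 and 9.91 normalized counts without and 42 and 48.3 with TGFβ, a log2 fold change of 2.25 (standard error 0.47, limma adjusted p = 0.0044), and its call held in every alternative that tested it. *PCDHGA5* had 8.54 and 12.6 without and 36.7 and 37 with TGFβ, a log2 fold change of 1.73 (standard error 0.53, limma adjusted p = 0.0412). *PCDHGB7* had 335 and 360 without and 558 and 515 with TGFβ, a log2 fold change of 0.63 (standard error 0.15, limma adjusted p = 0.0116). *PCDHGC3* had 2365 and 2259 without and 2876 and 2919 with TGFβ, a log2 fold change of 0.33 (limma adjusted p = 0.0118) that is under the threshold on size. The same 3 C-type gamma genes, *PCDHGC3*, *PCDHGC4* and *PCDHGC5*, had both TGFβ libraries above both controls, as did 30% of all genes. The call of *PCDHGA5* was lost without siNC replicate 1 (1.48), siNC replicate 2 (1.99), siNC + TGFβ replicate 1 (1.74) or siNC + TGFβ replicate 2 (1.73, limma adjusted p = 0.137). The call of *PCDHGB7* was lost without siNC replicate 1 (0.58), siNC replicate 2 (0.68) or siNC + TGFβ replicate 1 (0.57), and without any of these 3 libraries 1 member was called.

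The 11 beta genes had positive values throughout, with a median log2 fold change of 0.48 against -0.01 over all genes, but none was called by limma, edgeR or DESeq2. In limma 3 had an unadjusted p under 0.05 (27.3%, against 28.4% of all genes). Both TGFβ libraries lay above both controls for 7 of the 11, and over all genes this held for 30%. *PCDHB8* had 72.1 and 64.9 normalized counts without and 108 and 103 with TGFβ, which did not overlap, and a log2 fold change of 0.62 (95% interval 0.07 to 1.16, unadjusted p = 0.0291, limma adjusted p = 0.122). *PCDHB2* had 225 and 228 without and 328 and 286 with TGFβ (log2 fold change 0.43, limma adjusted p = 0.0876). *PCDHB13* had 7.59 and 12.6 without and 38.8 and 17.5 with TGFβ (log2 fold change 1.33, limma adjusted p = 0.165). The beta genes with near-identical stretches are not independent of each other.

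The alpha and non-clustered genes gave no call with TGFβ in siNC cells by limma over all 8 libraries, where 4.79% of all genes were called. In this fit 0 of 6 alpha and 3 of 6 non-clustered genes had an unadjusted p under 0.05, against 28.4% of all genes. *PCDH18*, a non-clustered gene, lay near the threshold there (-0.60, limma adjusted p = 0.0664). It was called lower by limma when only the libraries compared were fitted or when any 1 depleted library was left out (-0.60), by edgeR and DESeq2 on whole reads of 7 libraries (-0.61) and by DESeq2 on 8 (-0.61), but not by edgeR on 8. *PCDH7* had 2086 and 2186 normalized counts without and 1490 and 1526 with TGFβ, a log2 fold change of -0.50 (standard error 0.10, limma adjusted p = 0.00297) that missed the threshold on size. *PCDHAC2* had 260 and 231 without and 191 and 233 with TGFβ, which overlap.

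**Figure D3:**
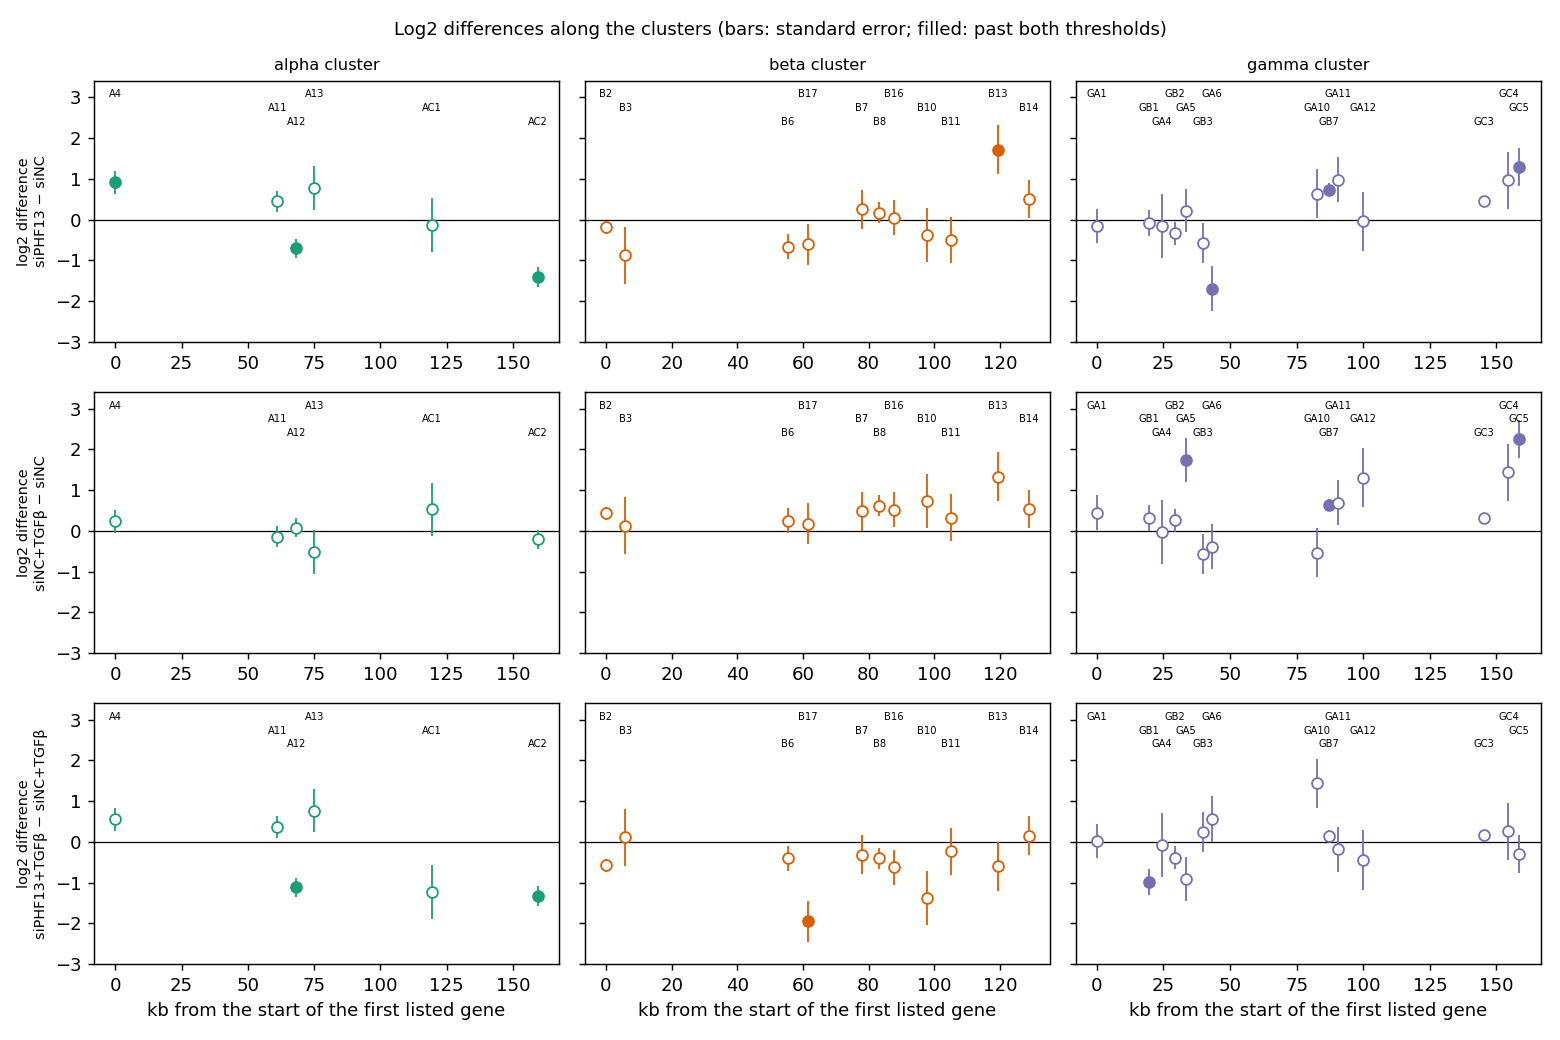
Log2 differences (y axis) of the clustered protocadherin genes by distance in kb from the start of the first listed gene of each cluster (x axis), for siPHF13 against siNC (top), siNC + TGFβ against siNC (middle) and siPHF13 + TGFβ against siNC + TGFβ (bottom). Error bars are standard errors, filled points passed both thresholds and gene names drop the letters PCDH. All 11 beta points lie above 0 in the middle row and 9 of 11 lie below 0 in the bottom row.

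The third comparison was depletion in TGFβ-treated cells, siPHF13 + TGFβ against siNC + TGFβ. Of the 37 members 5 were called (13.5%), against 20.5% of all genes, and all 5 were lower (11.7% of all genes were called lower). On whole reads of 8 libraries edgeR called 7 members and DESeq2 6, which added *PCDH20* lower with both (-1.80 and -1.83) and *PCDHGA10* higher with edgeR (1.60). The share of all genes called by these fits is not given here. limma also called *PCDHGA10* higher without siPHF13 + TGFβ replicate 2 (1.98), and edgeR on 7 libraries called *PCDHB10* lower (-1.48). *PCDHAC2* had 191 and 233 normalized counts in siNC + TGFβ and 70.2 and 99.1 in siPHF13 + TGFβ, a log2 fold change of -1.33 (standard error 0.24, limma adjusted p = 0.000462). *PCDHA12* had 203 and 317 against 104 and 132, a log2 fold change of -1.11 (standard error 0.23, limma adjusted p = 0.00119). *PCDH7* had 1490 and 1526 against 936 and 849, a log2 fold change of -0.76 (standard error 0.10, limma adjusted p = 2.42e-05). These 3 genes were the ones called lower in both depletion comparisons, which share no library, and with TGFβ their calls held under every alternative run. *PCDH1* and *PCDHGB7*, whose calls without TGFβ held under every alternative, were not called here. Their log2 fold changes were -0.26 (limma adjusted p = 0.234) and 0.15 (limma adjusted p = 0.439). The pseudogene *PCDHB17* had 27 and 45.3 against 6.48 and 10.6, a log2 fold change of -1.95 (standard error 0.51, limma adjusted p = 0.00548). *PCDHGB1* had 70.1 and 74.1 against 28.1 and 46.2, a log2 fold change of -0.98 (standard error 0.32, limma adjusted p = 0.0203). The call of *PCDHB17*, whose exons all lie under another annotated gene, was lost without siNC + TGFβ replicate 2 (-1.59). That of *PCDHGB1* was lost without siNC + TGFβ replicate 1 (-1.02), siNC + TGFβ replicate 2 (-0.94) or siPHF13 + TGFβ replicate 1 (-0.63).

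Of the 11 beta genes 9 had negative values after depletion with TGFβ, with a median log2 fold change of -0.40 against 0.00 (0.003) over all genes. For 7 of the 11 both depleted libraries lay below both controls, which held for 36.1% of all genes. *PCDHB8* had 108 and 103 normalized counts in siNC + TGFβ and 78.8 and 79.9 in siPHF13 + TGFβ, which did not overlap, and a log2 fold change of -0.40 (95% interval -0.95 to 0.14, limma adjusted p = 0.201). *PCDHB2* had 328 and 286 against 202 and 210, a log2 fold change of -0.57 (standard error 0.16, limma adjusted p = 0.00914) just under the threshold on size. The siNC + TGFβ libraries are also the treated side of the TGFβ comparison, so the rise of the beta values there and their fall here rest in part on the same libraries. *PCDHGC3* had 2876 and 2919 in siNC + TGFβ and 3493 and 3001 in siPHF13 + TGFβ (log2 fold change 0.16, limma adjusted p = 0.107).

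**Figure D4:**
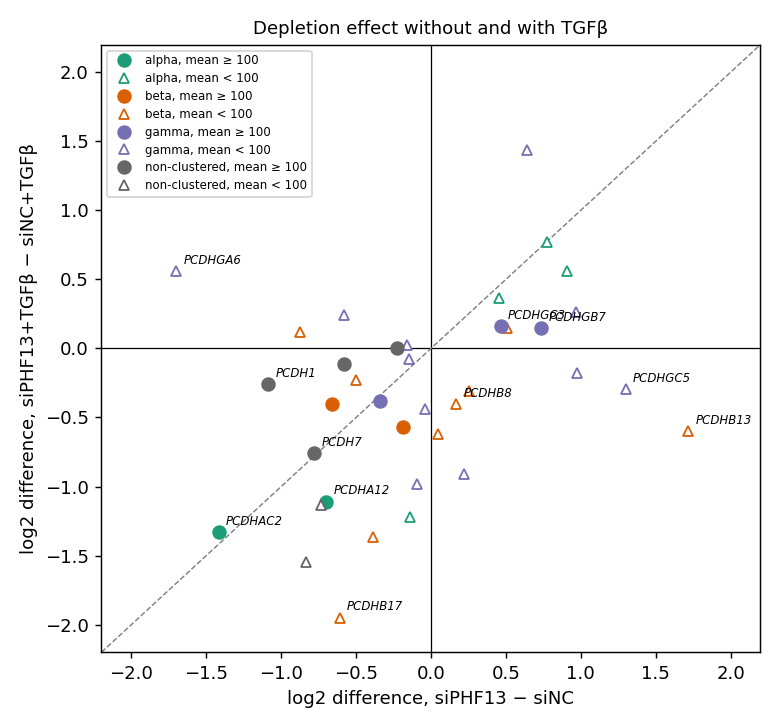
Log2 difference after depletion without TGFβ (x axis) and with TGFβ (y axis) for the 37 protocadherin genes, with filled circles for the 11 genes of mean 100 or more and open triangles for the 26 below it, and a dashed line where both are equal. *PCDHAC2*, *PCDHA12* and *PCDH7* lie in the lower left at -0.70 or below on both axes. So do *PCDH12* and *PCDH20*, which have low counts and were not called by limma over all 8 libraries. *PCDHB13* and *PCDHGA6*, among others, have opposite signs.

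Between both depletion comparisons, 10 of the 11 members whose mean was 100 normalized counts or more had the same sign, and 15 of the 26 lower members did. Over all genes it was 86.5% at a mean of at least 100 and 74% below. Pearson's r of the log2 fold changes was 0.74 over these 11 members and 0.28 over the 26, against 0.91 and 0.69 over all genes of the same ranges. These are descriptions across genes, which are not independent replicates and share the libraries of each comparison.

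In depleted cells TGFβ gave no call among the 37 members by limma (siPHF13 + TGFβ against siPHF13), where 1.35% of all genes were called, and 4 members had an unadjusted p under 0.05 (10.8%, against 13.9%). edgeR and DESeq2 on whole reads of 7 libraries each called *PCDH7* (-0.62) and *PCDH18* (-0.78) lower. These fits leave out siPHF13 replicate 1. On 8 libraries neither tool called a member, and limma without that library called 3 members, *PCDH7* (-0.62), *PCDH18* (-0.78) and *PCDHGA6* (2.63). *PCDH7* had 1130 and 1372 normalized counts in siPHF13 and 936 and 849 in siPHF13 + TGFβ, a log2 fold change of -0.48 (standard error 0.10, limma adjusted p = 0.0135), so that its values stood lowest with depletion and TGFβ together. *PCDHB8* had 64.7 and 91.7 without and 78.8 and 79.9 with TGFβ (log2 fold change 0.04, 95% interval -0.50 to 0.58, limma adjusted p = 0.967). *PCDHGC5* had 15.9 and 32.6 without and 41 and 32.7 with TGFβ.

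The interaction asks whether the response to TGFβ differed between depleted and control cells. None of the 37 members passed both thresholds by limma, edgeR or DESeq2, where limma called 0.308% of all genes, and 6 members had an unadjusted p under 0.05 (16.2%, against 9.46%). These 6, named after their values were seen, were *PCDH1* (log2 interaction 0.83, limma adjusted p = 0.226), *PCDHGA6* (2.26, 0.319), *PCDHGB7* (-0.59, 0.347), *PCDHGC3* (-0.31, 0.349), *PCDHB13* (-2.32, 0.355) and *PCDHGC5* (-1.59, 0.443). Without siPHF13 + TGFβ replicate 1, *PCDHGB7* was called (-0.81). For *PCDHB8* the interaction was -0.57 (95% interval -1.34 to 0.19, limma adjusted p = 0.689). A differing TGFβ response of the beta genes in control and depleted cells was therefore not shown, and the interval of *PCDHB8* includes both 0 and a response more than 1 log2 unit smaller after depletion.

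Few of the factors known to act on clustered protocadherin promoters passed both thresholds. Of 29 regulators in the table (CTCF, cohesin and its loader, DNA methyltransferases, SMCHD1, the SETDB1 complex, REST and Polycomb) 2 were called lower after depletion without TGFβ (6.9%, against 18.4% of all genes), while 17 had a limma adjusted p under 0.05 at any size of change (47.4% of all genes did). *STAG1*, a cohesin subunit, had 3140 and 3039 normalized counts in siNC and 2016 and 1940 in siPHF13 (log2 fold change -0.64, limma adjusted p = 9.13e-06). *DNMT3B*, a de novo DNA methyltransferase, had 507 and 461 against 293 and 332 (log2 fold change -0.63, limma adjusted p = 0.00135). With TGFβ, depletion gave 2 calls (6.9%, against 20.5% of all genes), both lower. These were *STAG1* (-0.78) and the repressor *REST* (-0.84, limma adjusted p = 1.15e-06), which had 2406 and 2430 in siNC + TGFβ and 1373 and 1322 in siPHF13 + TGFβ. Without TGFβ *REST* was lower after depletion as well (-0.579, limma adjusted p = 3.83e-05), just under the threshold on size. In depleted cells *DNMT3B* alone was called with TGFβ (0.60, higher), which is 3.45% of the 29 against 1.35% of all genes. edgeR and DESeq2 made both *DNMT3B* calls on 8 libraries and neither on the 7 without siPHF13 replicate 1. None was called with TGFβ in siNC cells by limma, edgeR or DESeq2, where limma called 4.79% of all genes. In limma 8 of 29 had an unadjusted p under 0.05 (27.6%, against 28.4% of all genes).

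Among 28 partners and signalling genes of protocadherins 5 were called after depletion without TGFβ (17.9%, against 18.4%). *PTK2*, the focal adhesion kinase that alpha and gamma protocadherins inhibit, had 10078 and 10524 normalized counts in siNC and 5415 and 5466 in siPHF13 (log2 fold change -0.92, limma adjusted p = 4.19e-08). *RET*, a receptor kinase that binds clustered protocadherins, was lower (-1.10), as was *CDH2*, N-cadherin (-0.85). The kinase *FYN* (0.83) was higher. *FYN* was the 1 of 28 called with TGFβ in siNC cells (0.84, limma adjusted p = 0.0424), which is 3.57% against 4.79% of all genes. edgeR and DESeq2 made both *FYN* calls on 8 libraries and neither on 7. Of 7 large atypical cadherins 3 were called after depletion (42.9%, against 18.4% of all genes). *CELSR3* (1.21) and *DCHS1* (0.69) were higher and *CELSR2* (-0.88) was lower. The *DCHS1* call was lost with DESeq2 on 7 libraries but not on 8. Of 20 genes that flank the clusters on chromosome 5, 2 were called by limma (10%, against 18.4% of all genes). These were *GNPDA1* (1.26) and *RELL2* (1.21), both higher. They lie on the same side of the gamma cluster as *PCDH1*, whose value was -1.08. *DIAPH1* was lower under the threshold on size (-0.53, limma adjusted p = 1.29e-05) and was called by edgeR and DESeq2 on 7 libraries but not on 8. With TGFβ, depletion gave calls for 4 of the 28 (14.3%), 3 of the 7 (42.9%) and 2 of the 20 (10%), against 20.5% of all genes.

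The labelled cell type was checked by markers. All 5 epithelial (*KRT7*, *KRT8*, *KRT18*, *KRT19*, *EPCAM*) and all 4 mesenchymal markers (*VIM*, *CDH2*, *ZEB1*, *FN1*) were in the table, and none of 4 acinar markers was. Since neurons use most clustered protocadherins, 8 neuronal markers were looked up, of which 3 were listed (*SNAP25*, *SYT1*, *SYP*) and *RBFOX3*, *STMN2*, *DCX*, *ELAVL3* and *ELAVL4* were not. The 3 summed to 1150 and 1270 normalized counts in siNC against 2001 and 1819 after depletion, and with TGFβ to 1595 and 1693 against 2167 and 2139. It was lowest in siNC, as were the gamma sums, and its part in them was not tested. Of 4 leukocyte and 4 endothelial markers *CD68* and *KDR* were listed. *CD68* had 7360 and 7236 in siNC against 11903 and 13047 after depletion, and with TGFβ 7666 and 6137 against 13400 and 10524, so that the 4 depleted libraries stood above the others. *KDR* had at most 32.6 in any library and was lowest in siNC replicate 1 (7.6). Epithelial markers summed to 193424 and 203975 in siNC against 171764 and 194400 after depletion, and with TGFβ to 121692 and 127368.5 against 138409 and 150094. Mesenchymal markers summed to 165955 and 168252 in siNC against 172977 and 168055 after depletion, and with TGFβ to 209436 and 202081 against 183576 and 198944. With TGFβ neither sum overlapped between siNC and depleted libraries. The part of these markers in the protocadherin values was not tested.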

How the data were processed

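Panc-1 mRNA was profiled in 4 conditions, 2 libraries a condition. Per the labels and the study's methods, the authors trimmed paired-end reads (Trim Galore 0.4.1), aligned them to hg19 (STAR 2.7.0), counted reads on exons (HTSeq 0.12.4) and normalized with DESeq2. The annotation release, the strand setting and a low-count filter are not given in the sources used here. The values are a signal as deposited by the authors: counts divided by a size factor. Whole reads (39196214 to 46700806 per library) were recovered in all 8 libraries from the step between values (100% whole within 0.001). siPHF13 replicate 1, whose step of 0.995 is the nearest to 1, was first left out of the count tests because a check of whole reads did not accept a step this near 1, and fits with it were added after seeing the data. The deposited comparisons of the authors (fold changes, p-values) were not used.

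All genes were fitted with limma 3.58.1 (R 4.3.3, trended variance, two-sided) on log2(normalized count + 1) over 8 libraries without a block, with Benjamini-Hochberg adjustment over 13307 genes. This scale understates the changes of low genes. Members and lists were chosen with earlier results of these data known. Named are *PCDHB8*, each called member, the highest member of each class and, per list, up to 4 called genes averaging at least 100, for depletion without TGFβ and for TGFβ in siNC cells. List genes named for other comparisons were chosen after their values were seen. A called gene of the partner list is not reported here. Gene coordinates are from GENCODE release 44 on GRCh37, and promoters from RefSeq. The fits were tested on simulated data. Alternatives were a pseudocount of 5, no filter, a minimum mean of 50, TMM factors, only the libraries compared, a replicate block, no fold threshold, edgeR 4.0.16 and DESeq2 1.42.0 on whole reads of 7 and of 8 libraries, and each library left out (a lone library is then assumed to vary like the others).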

Additional observations from a re-analysis of the deposited data

How the results depend on the processing

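Of 18 member calls in the 4 comparisons, 8 held under every alternative that tested them and 10 were lost in at least 1, most often when a library was left out. The number of members called after depletion ranged from 5 to 10 without TGFβ and from 4 to 7 with it when each library was left out, and the number called with TGFβ ranged from 1 to 4 in siNC cells and from 0 to 3 in depleted cells. For the interaction it ranged from 0 to 1. The TGFβ count in siNC cells moved from 3 to 1 at a minimum mean of 50 and to 5 with no fold threshold. In depleted cells it moved from 0 to 1 with no fold threshold, to 2 with edgeR and to 2 with DESeq2 on 7 libraries, but stayed at 0 with both on 8. The *PCDHB8* value changed sign in 4 fits, none with a call: to -0.08 after depletion without siPHF13 replicate 2 (range over left-out libraries -0.08 to 0.42), and for TGFβ in depleted cells to -0.21 without siPHF13 replicate 1 (range -0.21 to 0.29), -0.21 with edgeR and -0.21 with DESeq2, which leave out the same library. The *PCDH9* call was lost with a pseudocount of 5 (-0.56) and TMM factors (-0.58), by the threshold on size, and with edgeR and DESeq2 on 7 (-0.68) and 8 libraries (-0.58). *PCDHGC5* after depletion was lost when only the libraries compared were fitted, and DESeq2 on 7 libraries lost *PCDHB13*, *PCDHGA5* and *PCDHGB1*; the cause was not tested. The labels give the conditions the same replicate numbers, but same-numbered libraries did not deviate together (correlations of -0.089 to 0.05 over all genes), so the numbers were not taken as pairs. With a replicate block the counts were 10, 3, 5, 0 and 0, and for TGFβ in siNC cells *PCDHGA5* was lost (1.73, limma adjusted p = 0.0524) and *PCDH18* gained (-0.60). Precision is limited by the low level of most members, since 22 of 37 had a mean under 50 normalized counts. For member counts under alternatives, here and above, the share of all genes called in the same fit is not given. A change in such a count therefore cannot be read as particular to the members.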
